A study of Mus musculus with 7 samples.

Results

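The 4 libraries described here are tumour-associated macrophages sorted from intracranial gliomas that carried a control hairpin, and they are 4 of the 7 samples of the series. They were chosen by their titles, which name the hairpin shSC and replicates 1 to 4. A gene was called expressed when it reached at least 1 TPM (reads per base of gene length, scaled to the same total in each library) in all 4 libraries, and 9611 of 55385 gene IDs did so. All tumours grew in C57BL/6 mice after injection of 100000 QPP7 cells, described by the submitters as an isogenic glioma line. The hairpin was carried by the tumour cells, as the control vector for a hairpin against Chi3l1, and the sorted macrophages belonged to the host. No treatment, age, sex or time after injection is given in the sources used here. Per the labels' protocols, the tumours were digested with collagenase IV (15 min at 37 °C), freed of red cells by lysis, blocked for Fc receptors and stained, and macrophages were sorted by flow cytometry with antibodies that are not named. Libraries were made from 10 ng of RNA by SMART-Seq amplification and from 1 ng of cDNA by Nextera XT, which does not mark strand. The labels do not say that the 4 replicates came from separate mice, so the spread between them may be partly technical. All levels are those of cells after digestion, staining and sorting, and none was measured in intact tumour. There is 1 group, so values and their spread are described without a test.

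Macrophages in a glioma come from resident microglia, which enter the brain before birth and renew there, and from blood monocytes that enter the tumour and mature in it. Microglia are known by Tmem119, P2ry12 and the transcription factor Sall1. Monocyte-derived cells are known by Ccr2 and Ly6c2 and, after entry, by MHC class II genes, Lgals3 and, in many models, Arg1. Both read the tumour through Csf1r, Fc receptors, complement receptors and Toll-like receptors, and act on it through chemokines, cytokines, complement, proteases and lipid carriers. In bulk RNA, fewer cells of a type and less RNA per cell cannot be told apart.

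The libraries held 19169129 to 32590781 reads assigned to genes, with the fewest in shSC 4. The 100 most abundant genes of each library took 47.6% to 52.6% of TPM (SD 2.75, n = 4), mitochondrially encoded genes 1.19% to 3.29%, and ribosomal protein genes 3.80% to 7.91%. Spearman correlations between libraries were 0.881 to 0.946 across the 9611 genes, which are not independent replicates. Every pair of libraries differed by more than sampling noise, with a chi-square per gene of 170.6 to 536.2. shSC 1 and shSC 2 lay furthest apart, and they differed with gene length. Among expressed protein-coding genes with a mean of at least 10 TPM, the shortest 1175 (204 to 2060 bases) had a median deviation from the gene's mean over libraries, on the log2 scale, of 0.23 in shSC 1 and -0.24 in shSC 2. The longest 1174 (4648 to 24499 bases) had -0.39 in shSC 1 and 0.27 in shSC 2, against -0.17 in shSC 3 and 0.11 in shSC 4. The part of this length trend in the values of long genes was not tested. Glioma and glial markers summed highest in shSC 4, at 112, 189, 151 and 482 TPM in shSC 1 to 4. That library also stood apart in hemoglobin genes. Without Fabp7, a gene picked after its values were seen, the glioma and glial sums were 78.4, 155, 128 and 194 TPM. Cnp made up most of these sums in shSC 1 to 3 (68.4, 104 and 87.7 TPM) and was lowest in shSC 4 (51.4 TPM). Of all 17 genes of the list, expressed or not, 11 were highest in shSC 4. The share of 25.9% highest there covers expressed protein-coding genes only, and 5 of the 17 were expressed.

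The label was checked against the 4 marker genes and a list of 14 genes that macrophages share. Values below are given in the order shSC 1, shSC 2, shSC 3 and shSC 4, and ± is the SD over these 4 libraries. Cd74, the invariant chain of MHC class II and receptor for the cytokine Mif, was at 15157, 58886, 34019 and 34760.2 TPM (mean 35706 ± 17919.7). Lgals3, a galectin that macrophages secrete and hold in the cytosol, was at 2806, 2650.0, 3662 and 2654 TPM (mean 2943 ± 485). Tmem119, a microglial membrane protein, was at 197, 234, 184 and 119 TPM (mean 184 ± 47.9). These 3 markers were high in every library, and each lay far above the median of 13.7 TPM of expressed protein-coding genes. Arg1, which breaks down arginine, was at 909.6, 126, 38.6 and 583 TPM (mean 414 ± 408), so it was present in all 4 libraries but its level differed more between them than that of the other 3 markers. Without shSC 1, the mean TPM of Arg1 was 249. All 14 of the shared macrophage genes were expressed (14 of 14, against 36.9% of all 21897 protein-coding genes), with a median mean level of 321 TPM. Lyz2, Tyrobp, Fcer1g, Cd14, Cd68 and Aif1 had means of 1352 to 25496 TPM, and Spi1, Adgre1 and Fcgr1 lay between 271 and 296 TPM. The 3 lowest were Ptprc, which encodes CD45 (5.82, 39.9, 14 and 30.7 TPM), Mertk (7.34, 32.4, 9.21 and 27.8 TPM) and Itgam, which encodes CD11b (3.50, 16.5, 5.82 and 16 TPM). Each of these 3 was lowest in shSC 1 and highest in shSC 2. Ptprc has 18313 bases of exon and Itgam 5024, so both are among the longest genes of the length trend above. Their gaps between shSC 1 and shSC 2 were wider than that between the medians of those genes (-0.39 and 0.27 on the log2 scale). The part of the trend in these values was not tested. Of the Itgam exon bases, 68.7% overlap another gene, where reads without strand cannot be assigned.

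After mitochondrial, ribosomal protein and ribosomal RNA genes were set aside, the 20 genes of highest mean TPM held 5 genes of MHC class II presentation (Cd74, H2-Ab1, Ctss, H2-Eb1 and H2-Aa), both class I genes B2m and H2-D1, the 3 chains of C1q, the signalling adaptors Tyrobp and Fcer1g, both ferritin chains, lysozyme, apolipoprotein E and the chemokine Ccl4. H2-Ab1, the beta chain of I-A, was at 28524, 32145, 41009 and 19145 TPM (mean 30206 ± 9049). Lyz2, the lysozyme of myeloid cells, was at 13761, 40789, 20736 and 26699 TPM (mean 25496 ± 11484). B2m, the light chain of class I, was at 19427, 31344, 26699 and 17419 TPM (mean 23722 ± 6458). Tmsb4x, which binds actin monomers, had a mean of 22559.7 ± 3655 TPM. The order of these genes changed from library to library: H2-Ab1 stood above Cd74 in shSC 1 and shSC 3 and below it in shSC 2 and shSC 4. C1qb, C1qa and C1qc, which form the recognition subunit of the classical complement pathway, had means of 14896 ± 2798, 6232 ± 1409 and 6149 ± 774 TPM, and all 3 were highest in shSC 3 and lowest in shSC 4. Tyrobp had 11235, 7498, 10305 and 8468 TPM and Fcer1g 7208, 6920.4, 7317 and 6519 TPM. On the log2 scale, Fcer1g had the smallest SD of the 20, at 0.07.

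Apoe, the main lipid carrier of the brain, had the largest SD of the 20 on the log2 scale, at 1.65. It was at 1592, 13180.3, 7434 and 22299.9 TPM (mean 11127 ± 8824). Its mean without shSC 4 was 7402 TPM. It ranked 89 in shSC 1 and 9 in shSC 2. Gm23935, annotated as a miRNA gene of 57 bases at chr16:11144125-11144181 (plus strand, GRCm38), reached a mean of 24814 ± 10993 TPM on a mean of only 698 CPM (counts scaled without length), because TPM divides by a very short length. AW112010, annotated as a long noncoding RNA, was at 17267, 7624, 10135 and 9579.6 TPM. Ftl1, the ferritin light chain, had a mean of 11998 ± 1879 TPM, with 34.6% of its exon bases overlapping another gene.

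**Figure D1:**
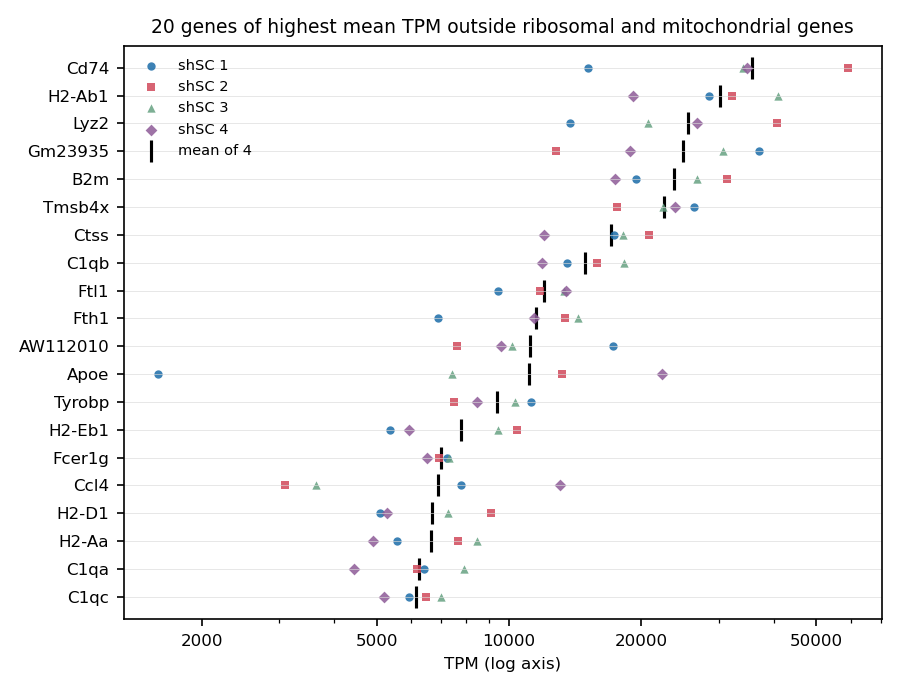
TPM on a log axis for the 20 genes of highest mean TPM outside mitochondrial and ribosomal genes, 1 symbol per control-hairpin library and a black bar at the mean of the 4. Fcer1g lies within 6519 to 7317 TPM, while Apoe runs from 1592 TPM in shSC 1 to 22299.9 TPM in shSC 4.

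All 11 genes of the MHC class II list were expressed, against 36.9% of all protein-coding genes. Below the chains named above stood H2-DMb1 (mean 1314 ± 313 TPM) and H2-DMa (845 ± 205 TPM), which load peptide, and Ifi30 (1056 ± 249.9 TPM), a reductase of the lysosome. H2-Oa, a modulator of H2-DM best known in B cells, was at 64.8, 145, 205 and 41.5 TPM, and Ciita, the master regulator of class II, at 6.50, 25.3, 13.4 and 7.17 TPM. The summed level of the list was 75608, 133697, 114642 and 79271 TPM. B cells and dendritic cells also express class II, and the summed level of the B-cell list was 415, 1329, 6519 and 476 TPM and of the dendritic-cell list 1505, 2994, 2914 and 1134 TPM. Of the dendritic-cell sum, 1245, 1504, 1382 and 749 TPM came from Bst2, which interferon also induces in macrophages. All 3 lists were higher in shSC 2 and shSC 3 than in shSC 1 and shSC 4. The part of B cells and dendritic cells in the class II levels was not tested.

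Promoters of some members are shown to set sequence beside level, as the 250 bases before the annotated start, from RefSeq (GRCm38.p6). Of the lists of surface receptors and secreted factors, 149 and 130 genes matched an entry. Each window was searched on both strands for GAGGAAGT, a motif of PU.1 (the product of Spi1), for GAAANNGAA, found in interferon-response elements that IRF factors bind, and for TATAAA, the TATA box. These 3 words do not contain each other, and matches may overlap. Of all 32851 promoters of this length, 2.44% held the PU.1 motif, 7.13% the IRF element and 12.4% the TATA box. For the promoters of expressed protein-coding genes the shares were 2.95%, 6.80% and 6.59%. The 2 abundant genes below carry a match on either strand, shown in capitals. Ctss encodes cathepsin S, the protease that trims Cd74 off class II (17318, 20869.7, 18193 and 12032 TPM), and its window is chr3:95526536-95526785, plus strand, with an IRF element that begins 21 bases before the start and a TATA box word on the opposite strand that begins 233 bases before it. C1qc (5919, 6459, 7016 and 5203 TPM) has the window chr4:136892915-136893164, minus strand, with the PU.1 motif on the opposite strand, 195 bases before the start. A match is a string of letters and was not tested as a binding site.
Ctss: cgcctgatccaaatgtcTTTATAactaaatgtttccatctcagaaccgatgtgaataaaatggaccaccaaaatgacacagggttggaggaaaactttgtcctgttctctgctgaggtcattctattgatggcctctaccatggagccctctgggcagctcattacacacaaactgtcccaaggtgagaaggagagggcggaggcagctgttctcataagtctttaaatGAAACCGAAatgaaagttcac
C1qc: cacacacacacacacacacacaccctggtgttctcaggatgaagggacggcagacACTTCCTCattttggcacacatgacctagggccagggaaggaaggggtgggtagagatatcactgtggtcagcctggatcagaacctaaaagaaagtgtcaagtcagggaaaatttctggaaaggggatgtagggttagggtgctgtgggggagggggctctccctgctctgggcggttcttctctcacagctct

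Of 194 listed surface receptor genes, 170 (87.6%) were expressed, with a median mean level over all 194 of 43.7 TPM, against 36.9% and 0.572 TPM for all protein-coding genes. The lists were made of genes known in macrophages. In 44 of the 194 receptor genes every library had at least 100 TPM, against 824 of all 21897 protein-coding genes. Of the 170 expressed, 38.8% were highest in shSC 2, 24.7% in shSC 4, 22.9% in shSC 1 and 13.5% in shSC 3, and for the 8072 expressed protein-coding genes these shares were 37.6%, 25.9%, 22.5% and 13.9%. These shares moved with level: of the expressed protein-coding genes with a mean of at least 50 TPM, 44.5% were highest in shSC 1, 26.1% in shSC 2, 18% in shSC 4 and 11.4% in shSC 3.

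Among receptors for growth factors and lineage cytokines, 22 of 24 were expressed. Csf1r, the receptor on which macrophage survival depends, was at 152, 582, 202 and 444 TPM (mean 345 ± 203). It was lowest in shSC 1 and highest in shSC 2, and its 5774 bases of exon place it among the longest genes of the length trend. Il2rg, the common gamma chain, had a mean of 288 ± 132 TPM and Ifngr1, a chain of the interferon-gamma receptor, 171 ± 62.7 TPM. Its partner chain Ifngr2 was at 113, 106, 106 and 84.7 TPM, a narrower range than that of Ifngr1 (95.3, 246, 186 and 157 TPM). The GM-CSF receptor chains Csf2ra and Csf2rb had means of 145 ± 65.7 and 44.4 ± 24.7 TPM. Both TNF receptors (Tnfrsf1a, 149.7 ± 26.3 TPM, and Tnfrsf1b, 137 ± 70.0 TPM), the interleukin-10 receptor chain Il10ra (108 ± 23.2 TPM) and the interleukin-4 receptor chain Il4ra (98.3 ± 31.9 TPM) were expressed. Of the interleukin-1 receptors, the decoy Il1r2 was at 36.6, 168, 102 and 144 TPM, while the signalling receptor Il1r1 did not reach 1 TPM in any library (0.00965, 0.431, 0.313 and 0.0692 TPM). In this class 18 of 24 genes, expressed or not, were highest in shSC 2, against 37.6% of all expressed protein-coding genes.

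Among Fc receptors, which bind the constant part of antibodies, 7 of 8 were expressed. Fcgr3 was at 2279, 1582, 1669.6 and 1304 TPM (mean 1709 ± 411). Fcgr4 was at 1479.8, 584, 1086 and 551 TPM (mean 925 ± 443), and the high-affinity receptor Fcgr1 at 421, 239, 248 and 175 TPM (mean 271 ± 105). The inhibitory receptor Fcgr2b was at 223, 242, 149 and 242 TPM (mean 214 ± 44.1). The activating receptors were highest in shSC 1 and lowest in shSC 4, and Fcgr2b was not. Fcer2a, the low-affinity IgE receptor of B cells, was at or below 1.62 TPM in every library and was the member of the class not called expressed. The Fcgr4 window below, chr1:171018676-171018925 (plus strand), is shown because it holds both motifs, the PU.1 motif on the opposite strand 24 bases before the start and an IRF element 73 bases before it. The PU.1 motif was in 6.25% of 176 promoters of surface receptor genes and the IRF element in 9.09%.
Fcgr4: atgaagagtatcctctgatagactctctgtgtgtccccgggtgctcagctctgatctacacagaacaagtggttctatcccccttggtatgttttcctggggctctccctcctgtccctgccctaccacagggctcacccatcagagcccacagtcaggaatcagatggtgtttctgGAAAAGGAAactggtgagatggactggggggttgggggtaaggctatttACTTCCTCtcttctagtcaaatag

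Of the complement receptors and regulators, 8 of 10 were expressed. C5ar1, the receptor of the fragment C5a, was at 168, 198, 184 and 472 TPM (mean 256 ± 145, and without shSC 4 183 TPM). C3ar1, the receptor of C3a, was at 181, 169, 167 and 193 TPM (mean 177 ± 12.2). C3ar1 was thus nearly level across the libraries and C5ar1 was high in shSC 4 alone. Itgb2, the beta chain shared by CR3 and CR4, had a mean of 242 ± 91.8 TPM, and Itgax, the alpha chain of CR4, was at 30.2, 183, 74.5 and 100.3 TPM. Vsig4, a complement receptor of tissue macrophages, had 0 reads in shSC 1 to 3, which allows up to 0.124, 0.138 and 0.149 TPM (3 reads, counting error only), and 0.0742 TPM in shSC 4.

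Of 18 chemokine and chemotactic receptors, 15 were expressed. Ccrl2, which binds chemerin without signalling, had the highest mean, at 1352, 1011, 1076 and 1756 TPM. Ccr7, which guides dendritic cells and some lymphocytes to lymph nodes, was at 141, 1115, 1264 and 274 TPM (mean 698 ± 573). Ccr7 was high in the same 2 libraries, shSC 2 and shSC 3, in which the T-cell, B-cell and dendritic-cell lists summed highest. Ccr7 is itself in the dendritic-cell list, which without it summed to 1364, 1878, 1651 and 861 TPM, most of it from Bst2 in each library. The part of these cells in Ccr7 was not tested. Plaur, the urokinase receptor, had a mean of 382 ± 176 TPM, and Ccr1, a receptor for Ccl3 and Ccl5, was at 510.1, 258, 308 and 339 TPM. Ccr2, which brings monocytes into tissue, was at 24.7, 26.0, 27.0 and 28.7 TPM (mean 26.6 ± 1.70), close to level. Cx3cr1, high in microglia, was at 45.1, 103, 76.1 and 54.6 TPM, and Cxcr4 had a mean of 40.7 ± 7.89 TPM. The summed level of the class was 2600.4 TPM in shSC 1 and 3242 to 3256 TPM in the other 3 libraries.

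Of 23 Toll-like and lectin receptors, 21 were expressed. Cd14, the co-receptor for lipopolysaccharide, was at 1456, 2207, 940.1 and 5291 TPM (mean 2473 ± 1949, and without shSC 4 1534 TPM). Clec7a, which binds beta-glucan, had a mean of 1229 ± 183 TPM and Clec4n, which binds mannans, 685 ± 172 TPM. Tlr2 led the Toll-like receptors at 393, 426, 198 and 537 TPM. Tlr4 was at 18.1, 12, 12.1 and 8.34 TPM, and its partner Ly96 at 94.8, 61.1, 56.3 and 73.4 TPM. Cd14 was thus highest in shSC 4, where Tlr4 was lowest. The endosomal receptors Tlr7, Tlr8 and Tlr3 had means of 12.6 ± 5.81, 4.87 ± 2.50 and 2.83 ± 1.59 TPM. Mrc1, the mannose receptor, was at 2.45, 10.3, 0.0347 and 23.3 TPM and was not called expressed.

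Among scavenger and efferocytosis receptors, 15 of 19 were expressed. Cd68 was at 948, 2052, 1599 and 1709 TPM (mean 1577 ± 461), and the tetraspanins Cd63 and Cd9 had means of 981 ± 125 and 550.1 ± 47.5 TPM. Axl, which binds dying cells through Gas6, was at 150.5, 497, 232 and 270.4 TPM, and the related receptor Mertk had a mean of 19.2 ± 12.8 TPM. The third member of that family, Tyro3, did not pass 0.309 TPM. Gpnmb, a membrane protein of lipid-laden macrophages, was at 32.7, 364, 365 and 128 TPM. Cd163 and Marco, found on other tissue macrophages, were below 1 TPM in at least 3 libraries, with means of 0.0436 ± 0.0798 and 0.323 ± 0.624 TPM.

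Inhibitory and activating myeloid receptors numbered 25, of which 22 were expressed. Beside the adaptor Tyrobp stood Cd300c2 at 1060.1, 671, 841 and 813 TPM, Cd300a with a mean of 178 ± 64.1 TPM, and the collagen receptor Lair1 with 174 ± 45.5 TPM. Trem2, a lipid receptor that signals through Tyrobp, was at 158, 113, 103 and 148 TPM (mean 131 ± 26.4). Sirpa, the receptor for Cd47, was at 58.9, 158, 89.4 and 166 TPM, and Trem1, which amplifies inflammation, at 33.4, 65.9, 41.8 and 70.6 TPM. Lilrb4a, an inhibitory receptor, was at 1.43, 10.9, 2.31 and 44.2 TPM, with 35.9% of its exon bases overlapping another gene. Of the Siglecs in this class, Siglece had the highest mean, 39.0 ± 11.4 TPM, and Siglec1 was under the threshold in shSC 3, at 0.712 TPM.

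Of 21 genes for T-cell checkpoint and co-stimulation ligands and receptors, 19 were expressed. Cd83, a marker of antigen-presenting cells, was at 1728, 1502, 1675 and 1238 TPM (mean 1536 ± 221), and Cd48, the ligand of Cd244, had a mean of 528 ± 119 TPM. Tnfsf9, which encodes 4-1BB ligand, was at 525, 143, 127 and 1171 TPM (mean 491 ± 489, and without shSC 4 265 TPM). Tnfsf9 was high in shSC 4 and shSC 1 and low in the other 2 libraries. Cd274, which encodes PD-L1, was at 92.0, 239, 115 and 214 TPM (mean 165 ± 72.3), and Pdcd1lg2, which encodes PD-L2, at 146, 90.6, 39.7 and 40.1 TPM. The co-stimulatory ligands Cd86 and Cd80 had means of 194 ± 34.5 and 11.3 ± 5.19 TPM, and Cd40 had 202 ± 29.9 TPM. Havcr2 (TIM-3) was at 28.0, 123, 64.0 and 81.9 TPM, Vsir (VISTA) at 91.0, 108, 112 and 74.9 TPM, and Lgals9 at 346, 649, 488 and 384 TPM. Vtcn1 had 0 reads in all 4 libraries, which allows up to 0.126 TPM in the shallowest. The class summed to 4328 to 4585 TPM, a narrow range (mean 4443 ± 108 TPM).

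Adhesion molecules and integrins were expressed in 21 of 24 cases, with Cd52 (mean 2885 ± 732 TPM), Cd53 (1039.6 ± 267 TPM) and Cd81 (510.2 ± 96.9 TPM) at the top. Sdc4, a syndecan, was at 229, 164, 98.9 and 456 TPM, and the integrin ligands Vcam1 and Icam1 had means of 219.6 ± 129.6 and 184 ± 69.9 TPM. Itga4, an integrin chain of blood-derived cells, was at 0.641, 4.00, 2.93 and 3.16 TPM and was under the threshold in shSC 1 only. Of 22 purinergic, lipid and other G-protein-coupled receptors, 20 were expressed, led by Adgre1 (F4/80, mean 282 ± 69.2 TPM), Hcar2, which binds niacin (149 ± 47.3 TPM), and the proton sensor Gpr65 (125 ± 44.0 TPM). P2ry6, a receptor of UDP, was at 94.9, 83.0, 84.5 and 58.2 TPM.

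**Figure D2:**
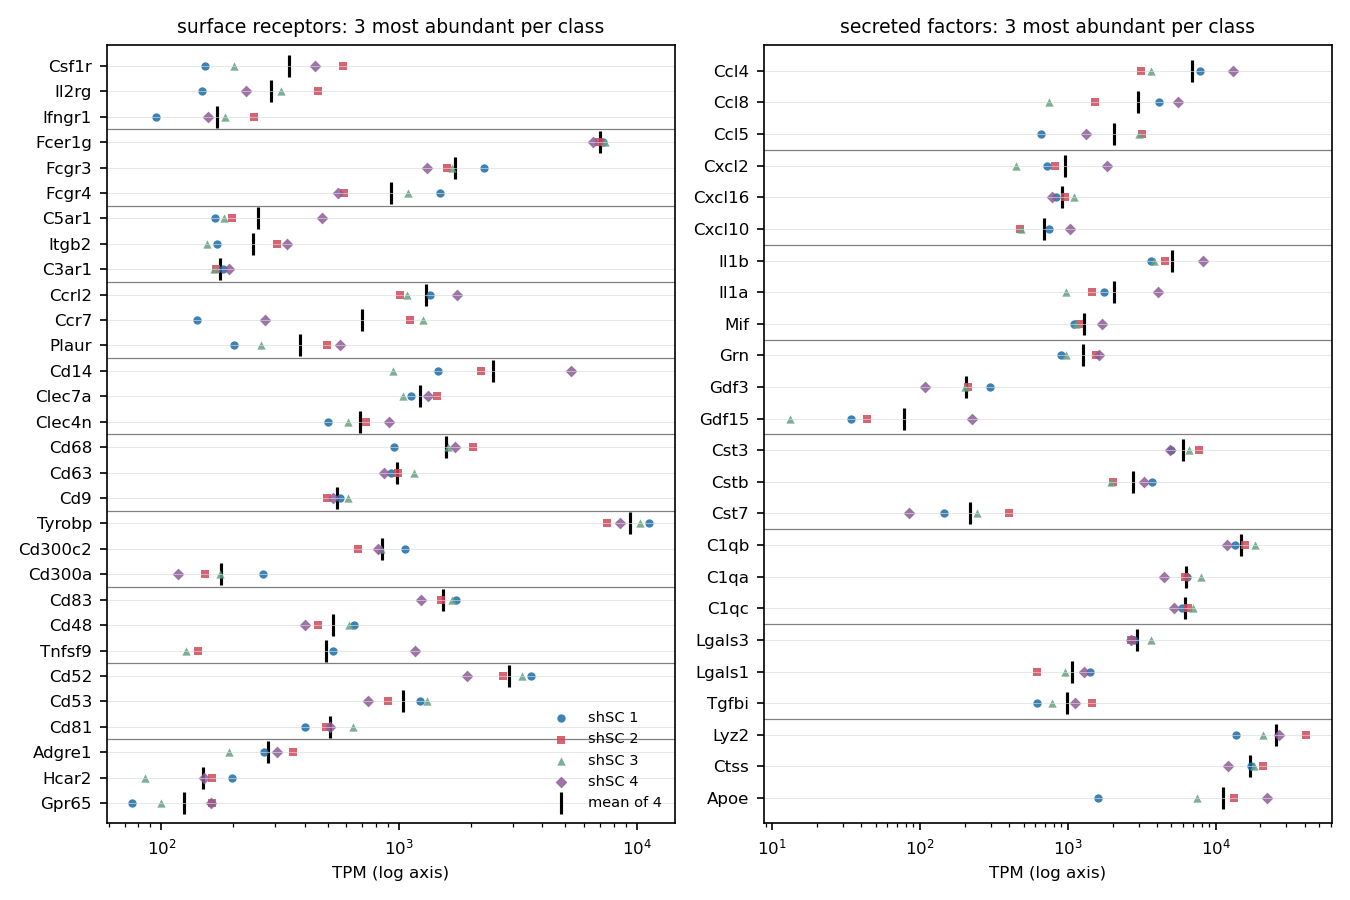
TPM on log axes for the 3 genes of highest mean in each class of surface receptors (left) and secreted factors (right), with horizontal lines between classes, 1 symbol per library and a black bar at the mean. Cd14, C5ar1, Ccl4, Il1b and Gdf15 have their highest value in shSC 4, while Fcer1g lies within 6519 to 7317 TPM.

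Of 176 measured genes for secreted factors, 124 (70.5%) were expressed, against 36.9% of all protein-coding genes, with a median mean level over all 176 of 25.5 TPM. Of these 124, 41.1% were highest in shSC 4 and 11.3% in shSC 1, against 25.9% and 22.5% of all expressed protein-coding genes and 18% and 44.5% of those with a mean of at least 50 TPM. shSC 4 was also the library with the highest sums for the glioma and glial, neuronal, fibroblast and pericyte, erythroid and platelet, and mast-cell and basophil lists, and with the lowest sum for NK cells. Of the glioma and glial list, 5 of 17 genes were expressed, and Mog and Aqp4 had 0 reads in shSC 1, which allows up to 0.108 and 0.0296 TPM. The part of these markers in the levels of secreted factors was not tested.

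CC chemokines, which attract monocytes, T cells and other leukocytes, were expressed in 12 of 15 cases, and the median mean level of the 15 was 515 TPM. Ccl4, an attractant of monocytes and T cells, was at 7756, 3095, 3637 and 13061 TPM (mean 6887 ± 4612). Ccl8 was at 4109, 1533, 742 and 5557 TPM (mean 2985 ± 2237). Ccl7, a ligand of Ccr2, was at 2085, 335, 148 and 2345 TPM (mean 1228 ± 1147). These 3 genes shared an order in which shSC 4 was highest, shSC 1 next, and shSC 2 and shSC 3 lower. Ccl2, the main ligand of Ccr2, was also higher in shSC 1 and shSC 4 (1097 and 938 TPM) than in shSC 2 and shSC 3 (227 and 162 TPM). Ccl5, which T cells and NK cells also make, was at 654, 3143, 2999 and 1327 TPM (mean 2031 ± 1234), so it was higher in shSC 2 and shSC 3, where Ccl7 was lower. Ccl22, a ligand of Ccr4 made by dendritic cells and macrophages, was at 21.8, 230.3, 80.8 and 57.9 TPM. Ccl24, a ligand of the eosinophil receptor Ccr3 that alternatively activated macrophages make, was at 1685, 213, 1.82 and 49.5 TPM (mean 487 ± 804). The mean TPM of Ccl24 was 88.0 without shSC 1, and each of the 4 values stood apart from the others. Ccl17 was at 138, 115, 45.6 and 73.9 TPM. Summed over the class, CC chemokines took 20687, 11505, 9348 and 27602 TPM.

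Of 15 CXC and other chemokines, 11 were expressed. The neutrophil attractants Cxcl2 and Cxcl1 were at 717, 822, 444 and 1842 TPM and at 727, 176, 103 and 1537 TPM. The interferon-induced ligands of Cxcr3 differed less: Cxcl10 was at 745, 476, 482 and 1035 TPM (mean 685 ± 265) and Cxcl9 at 277, 537, 449.6 and 379.8 TPM (mean 411 ± 109.9). Cxcl16, which is made as a membrane protein and shed, had a mean of 916 ± 143 TPM. Pf4, known in platelets and in border macrophages, was at 112, 99.9, 53.7 and 679 TPM (mean 236 ± 296, and without shSC 4 88.6 TPM). Among platelet markers beside it, Gp1bb had 0 reads in shSC 1 to 3, which allows up to 0.106 TPM, and 0.0528 TPM in shSC 4, and Ppbp was at 1.47, 5.50, 0.272 and 4.78 TPM. Cxcl12, which stromal cells make, did not pass 0.302 TPM, while its receptor Cxcr4 was expressed.

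Of 33 interleukins, interferons and TNF-family cytokines, 25 were expressed. Il1b was at 3614, 4546, 3793 and 8178 TPM (mean 5033 ± 2136, and without shSC 4 3984 TPM). Il1a was at 1753, 1442, 971 and 4038 TPM (mean 2051 ± 1363), and Tnf at 787, 416, 360.2 and 1336 TPM (mean 725 ± 449). All 3 were highest in shSC 4, and so were the interleukin-1 antagonist Il1rn (197, 433, 264 and 715 TPM) and the inhibitory cytokine Il10 (169, 44.7, 56.7 and 419 TPM). Ifnb1, a type I interferon, was at 10.8, 3.56, 2.46 and 83.7 TPM, and Il23a, a subunit of interleukin-23, at 4.40, 9.66, 6.04 and 62.2 TPM. Mif, a ligand of Cd74, had a narrower range, at 1089.9, 1191, 1134 and 1701 TPM. Il18bp, which binds interleukin-18, was at 333, 745, 724 and 465 TPM, above Il18 itself (99.6, 70.4, 93.5 and 73.4 TPM) in each library. Il12b, the shared subunit of interleukin-12 and interleukin-23, had a mean of 43.0 ± 26.7 TPM, while Il12a had 1.03 ± 0.436 TPM and was not called expressed. Csf1, a ligand of Csf1r, was at 2.40, 6.65, 1.38 and 5.40 TPM. Il4 and Il13, which T cells and mast cells make, were below 1 TPM in 3 and in 4 libraries.

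The TATA box was in 23.1% of 160 promoters of secreted factor genes, 8.52% of 176 promoters of surface receptor genes and 12.4% of all promoters. The IRF element was in 13.8% of those of secreted factor genes. The windows of Il1b (chr2:129371140-129371389, minus strand) and Ccl8 (chr11:82114935-82115184, plus strand) are shown for their TATA box, which begins 31 and 32 bases before the start. That of Cxcl10 (chr5:92348890-92349139, minus strand) is shown for an IRF element 213 bases before the start. Capitals mark these words.
Il1b: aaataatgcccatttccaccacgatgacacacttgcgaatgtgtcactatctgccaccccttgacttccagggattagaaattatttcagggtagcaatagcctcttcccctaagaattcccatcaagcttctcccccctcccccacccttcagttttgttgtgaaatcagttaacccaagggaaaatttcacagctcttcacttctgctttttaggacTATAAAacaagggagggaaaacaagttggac
Ccl8: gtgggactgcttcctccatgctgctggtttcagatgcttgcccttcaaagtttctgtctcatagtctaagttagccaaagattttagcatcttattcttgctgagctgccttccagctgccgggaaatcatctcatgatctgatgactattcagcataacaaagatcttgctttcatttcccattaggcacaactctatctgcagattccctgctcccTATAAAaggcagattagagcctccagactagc
Cxcl10: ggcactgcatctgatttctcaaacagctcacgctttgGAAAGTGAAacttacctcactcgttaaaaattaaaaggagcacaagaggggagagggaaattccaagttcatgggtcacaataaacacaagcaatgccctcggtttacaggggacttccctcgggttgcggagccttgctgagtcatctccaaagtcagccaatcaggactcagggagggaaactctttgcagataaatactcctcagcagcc

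Growth and angiogenic factors were expressed in 17 of 27 cases, and most were low. Grn, a lysosomal and secreted protein, was at 894, 1536, 966 and 1629 TPM (mean 1256 ± 379.6). Gdf3 had a mean of 203 ± 76.4 TPM and was highest in shSC 1. Gdf15, a stress-induced factor, was at 33.8, 43.4, 13.1 and 223 TPM (mean 78.2 ± 97.1, and without shSC 4 30.1 TPM). Vegfa, the main angiogenic factor, was at 14.1, 74.8, 55.9 and 69.7 TPM, Areg, an EGF receptor ligand, at 21.1, 28.3, 26.3 and 110.1 TPM, and Igf1 at 29.1, 47.6, 39.7 and 22.5 TPM. Tgfb1 had a mean of only 3.93 ± 1.73 TPM. The median mean level of the class, 4.12 TPM, was below that of the other classes of secreted factors.

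Proteases and their inhibitors were expressed in 19 of 26 cases. The cathepsin inhibitors Cst3 (4962, 7685, 6584 and 4905 TPM) and Cstb (3702, 2018, 1948 and 3279.8 TPM) had the highest means. Among metalloproteinases Mmp13 was at 108, 231, 183 and 272 TPM, Mmp12 at 31.2, 116, 203 and 111 TPM, and Mmp14, a membrane-bound enzyme, at 24.4, 130.1, 42.1 and 107 TPM. Mmp9, often named in glioma macrophages, did not pass 0.736 TPM. Each of Mmp12, Mmp13 and Mmp14 was lowest in shSC 1.

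Complement and pentraxin factors were expressed in 8 of 14 cases. Below the C1q chains, Cfp, which encodes properdin, had a mean of 417 ± 52.0 TPM, and C3, the central component, was at 38.1, 286, 47.3 and 138 TPM. C3 was thus well below the 3 chains of C1q in every library.

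Matrix proteins, matricellular proteins and galectins were expressed in 12 of 17 cases. Lgals1, an immunosuppressive galectin, was at 1417, 612, 956 and 1283 TPM (mean 1067 ± 359.6), and Lgals3 is given above. Lgals3bp, a secreted partner of Lgals3, was at 331, 1663, 1126 and 593 TPM, and Tgfbi at 621, 1443, 779.7 and 1119 TPM. Spp1, which encodes osteopontin, was at 147, 193, 104 and 866 TPM (mean 327 ± 361, and without shSC 4 148 TPM), and Thbs1, which encodes thrombospondin, at 7.62, 25.2, 6.70 and 109.8 TPM. Both were high in shSC 4. The class summed to 5594 TPM in shSC 1 and to 7145 to 7194 TPM in the other 3 libraries.

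Lipid carriers, chitinase-like and other secreted proteins were expressed in 20 of 29 cases. Below Lyz2, Ctss and Apoe stood the lysosomal proteins Ctsz (mean 4859 ± 1756 TPM), Psap (3237 ± 1487 TPM), Ctsb (2802 ± 465 TPM), Ctsd (2489 ± 1154 TPM) and Lgmn (1589 ± 270.0 TPM). Chil3, a chitinase-like protein of monocytes, was at 453, 189, 152 and 109 TPM. Chil1, the mouse gene also called Chi3l1, whose product the series is about, was at 0.504, 0.684, 0.631 and 0.707 TPM in these macrophages and was not called expressed. Retnlg, made by neutrophils and some monocytes, was at 25.9 and 98.3 TPM in shSC 1 and shSC 2, at 0 reads in shSC 3 (up to 0.373 TPM) and at 3.34 TPM in shSC 4. Arg1 and Chil3 were both highest in shSC 1, but Arg1 was high in shSC 4 as well and Chil3 was lowest there.

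Of 40 transcription factors of the myeloid lineage and of activation, 36 (90%) were expressed, against 36.9% of all protein-coding genes. Fos, an immediate-early gene, was at 1069.9, 1089, 1719 and 1530.0 TPM (mean 1352 ± 324), and Atf3, a stress-induced factor, at 507, 967, 796 and 375 TPM (mean 661 ± 269). Spi1, which encodes PU.1, was at 236, 361, 343 and 244 TPM, and Irf8, which microglia and dendritic cells need, at 174, 348, 305 and 133 TPM. Id2, Klf6 and Irf7 had means of 610.2 ± 114, 371 ± 144 and 317 ± 138 TPM. Maf had a mean of 3.55 ± 1.32 TPM. The 4 genes not called expressed were Sall1, Bhlhe41, Zfhx3 and Pparg. Of the 36, 58.3% were highest in shSC 2, against 37.6% of all expressed protein-coding genes.

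Microglial and monocyte-derived genes were present together in every library. Of 20 microglial genes, 18 (90%) were expressed, and of 25 monocyte-derived genes, 23 (92%), against 36.9% of all protein-coding genes. The median mean levels of these lists were 65.2 and 213 TPM. Most microglial genes other than C1qa were moderate. Lpcat2, an enzyme of phospholipid remodelling, was at 371, 292, 284 and 289 TPM, and Tmem119 is given above. The purinergic receptors P2ry12 and P2ry13 were at 14.4, 39.0, 21.7 and 21.2 TPM and at 64.6, 69.3, 67.3 and 50.6 TPM. Gpr34 (mean 25.3 ± 4.64 TPM) and Olfml3 (117 ± 25.3 TPM) kept within narrow ranges. Fcrls ran from 5.65 TPM in shSC 3 to 62.3 TPM in shSC 4 and Crybb1 was at 7.73, 32.3, 37.1 and 4.02 TPM, so both had their extremes in shSC 3 and shSC 4, in opposite directions. Siglech was at 2.50, 7.01, 3.75 and 1.07 TPM, and it is also known in plasmacytoid dendritic cells. The 2 microglial genes not called expressed were Sall1 (0.501, 0.950, 0.126 and 0.795 TPM) and the fructose transporter Slc2a5 (1.41, 1.79, 1.36 and 0.324 TPM).

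Among monocyte-derived genes, Cd74, Lyz2, Lgals3 and the interferon-induced Ifitm3 (3496, 3750.2, 4703 and 1889 TPM) were highest, and other macrophages express all 4. Of the other genes of this list, Ly6c2 was at 358, 392, 289 and 79.3 TPM (mean 279 ± 140.0), Plac8 at 1211, 506, 1160.4 and 426 TPM (mean 826 ± 418) and Ms4a4c at 1028, 424, 586 and 262 TPM (mean 575 ± 329.5). All 3 were lowest in shSC 4, and Ccr2 was nearly level. The NK-cell and dendritic-cell sums were lowest in shSC 4 too (313 and 1134 TPM), and the part of other cells in these 3 genes was not tested. Ifitm6 (37.0, 39.7, 110.3 and 8.03 TPM) and Hp (38.7, 59.5, 76.1 and 13.2 TPM) were also lowest in shSC 4 and highest in shSC 3. In contrast, Thbs1, Emilin2 (6.34, 25.5, 10.1 and 47.6 TPM) and Vim (99.6, 285, 156 and 348 TPM) were highest in shSC 4. Vim is also high in glioma cells, whose markers summed highest there too, and their part in Vim was not tested. Itga4 and Vcan (0.102, 0.142, 0.306 and 1.13 TPM) did not reach 1 TPM in all 4 libraries.

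The mean of log2(TPM + 0.1) was 5.43, 6.04, 5.61 and 5.47 for the 20 microglial genes and 6.88, 7.35, 7.12 and 7.04 for the 25 monocyte-derived genes. The difference, microglial minus monocyte-derived, was -1.45, -1.32, -1.51 and -1.57 (mean -1.46 ± 0.109), so the monocyte-derived list stood higher in all 4 libraries by a similar amount. This is a difference between averages of different genes and not a share of cells. The value of microglial minus monocyte-derived mean log2 TPM was -1.73 without genes whose exons overlap others and -1.18 without scaling to length. Border-associated macrophages, which line vessels and meninges, were the other resident type considered, and 5 of their 12 genes were expressed (41.7%, near the 36.9% of all protein-coding genes). Of the 12, Ms4a7 was at 571, 345, 585 and 497 TPM and Pf4 is given above, while Lyve1 and Cd163 did not pass 0.163 TPM. Their sum was highest in shSC 4, at 1287 TPM against 508 to 722 TPM. Without Pf4, picked after its values were seen, the sums were 609.6, 409, 622 and 608 TPM, and shSC 4 was not the highest. Ms4a7 made up most of these sums in every library. Of all 12 genes, expressed or not, 8 were highest in shSC 4. The share of 25.9% highest there covers expressed protein-coding genes only, and 5 of the 12 were expressed.

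**Figure D3:**
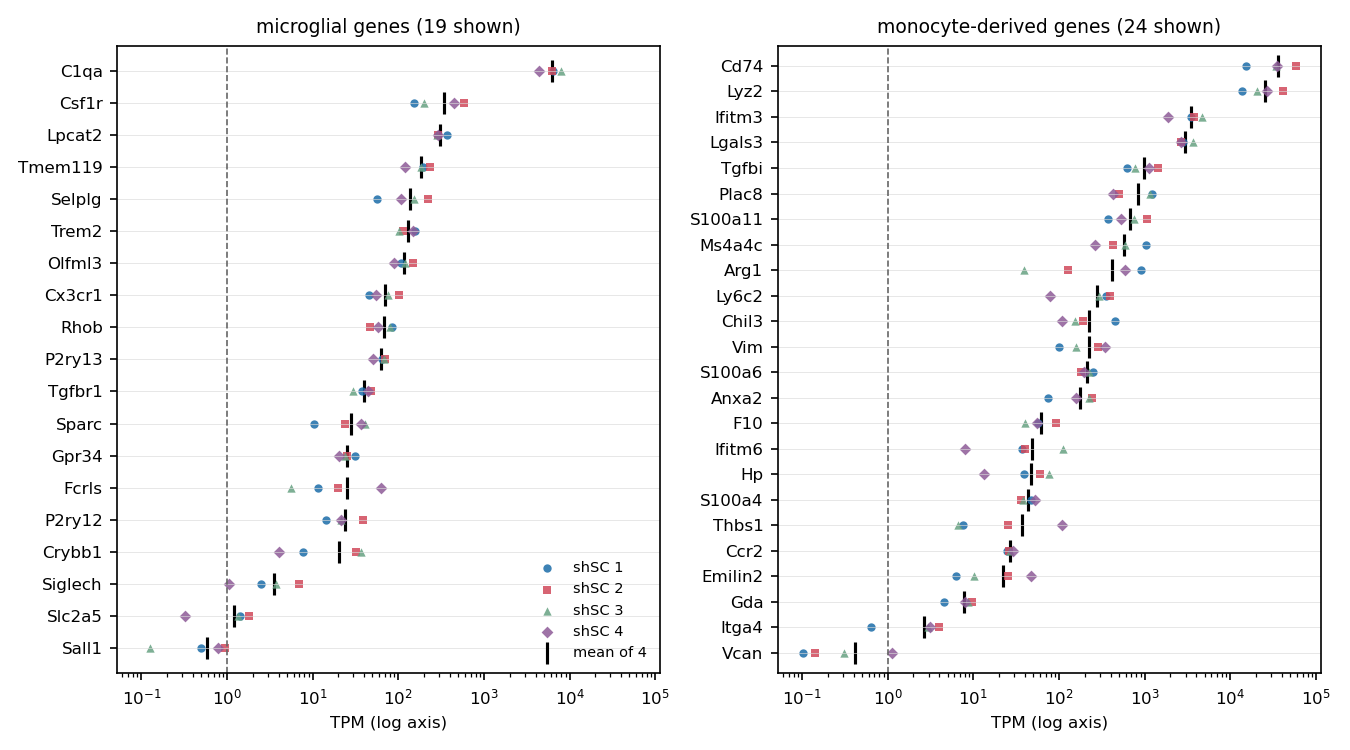
TPM on log axes for 19 of the 20 microglial genes (left) and 24 of the 25 monocyte-derived genes (right), 1 symbol per library, a black bar at the mean, and a dashed line at the threshold of 1 TPM. Ccr2 and P2ry13 lie in narrow bands, Arg1 runs from 38.6 to 909.6 TPM, and Sall1 lies below the line in every library.

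Lists of markers of other cell types are read against the 36.9% of all protein-coding genes that were expressed. T-cell genes were expressed in 7 of 11 cases (63.6%) and summed to 55.9, 380.1, 466 and 62.0 TPM. Trac, the constant part of the T-cell receptor alpha chain, was at 8.08, 82.3, 68.7 and 10.4 TPM, and Cd8a at 0.101, 9.25, 25.6 and 1.39 TPM. All 11 T-cell genes, expressed or not, were highest in shSC 2 or shSC 3, where 37.6% and 13.9% of expressed protein-coding genes were highest. NK-cell genes were expressed in 6 of 7 cases, and Gzma, a granzyme, was at 1276, 778, 948 and 201 TPM. The sum of that list was 1341 to 1494 TPM in shSC 1 to 3 and 313 TPM in shSC 4. Gzma carried most of it in every library: without Gzma, picked after its values were seen, the sums were 218, 563, 431 and 112 TPM. Gzmb, another granzyme, was at 148, 396, 277 and 72.5 TPM, and Prf1, which encodes perforin, at 20.7, 97.6, 56.4 and 11.4 TPM. These 2 genes were lowest in shSC 4 too, but shSC 1 stood nearer to it than to shSC 2. Of the B-cell and plasma-cell list 5 of 8 genes were expressed. All 8, expressed or not, were highest in shSC 3, against 13.9% of expressed protein-coding genes. Igkc, the constant part of the kappa chain, was at 272, 847, 5635 and 349.6 TPM, and Jchain, which joins secreted antibodies, at 19.0, 18.5, 335 and 15.7 TPM. Pax5, a defining B-cell factor, had 0 reads in shSC 1 and shSC 4, which allows up to 0.0208 and 0.0373 TPM, and did not pass 0.183 TPM elsewhere.

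Dendritic-cell genes were expressed in 10 of 11 cases, with Cd209a at 22.8, 40.2, 95.3 and 10.6 TPM and the defining genes Flt3 and Xcr1 at means of 6.99 ± 4.95 and 9.45 ± 4.57 TPM. Bst2 (mean 1219.8 ± 331 TPM) was the highest of that list and is also induced by interferon in macrophages. Neutrophil genes were expressed in 2 of 10 cases (20%), and S100a8 was at 24.2, 8.59, 10.9 and 38.9 TPM. Of the 17 glioma and glial genes, 5 (29.4%) were expressed. Of all 17, expressed or not, 11 were highest in shSC 4, while the share of 25.9% highest there covers expressed protein-coding genes only. Fabp7, a fatty acid carrier of glial progenitors, was at 33.5, 33.2, 22.6 and 288 TPM, and Olig1 at 5.28, 17.8, 12.9 and 80.7 TPM (means without shSC 4 of 29.7 and 12 TPM). Cnp, an enzyme of myelin and the other glial gene of similar level, was lowest in shSC 4, at 68.4, 104, 87.7 and 51.4 TPM. Hbb-bs was at 4.08, 10.6, 19.0 and 114 TPM. No fibroblast and pericyte gene of 8, and no mast-cell and basophil gene of 6, was expressed. The shared macrophage list summed to 37364, 62613, 43561 and 51313 TPM. Beside it, the sums of the T-cell and glial lists did not pass 482 TPM in any library. Those of the B-cell, NK-cell and dendritic-cell lists reached 6519 TPM (shSC 3), 1494 TPM (shSC 1) and 2994 TPM (shSC 2).

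**Figure D4:**
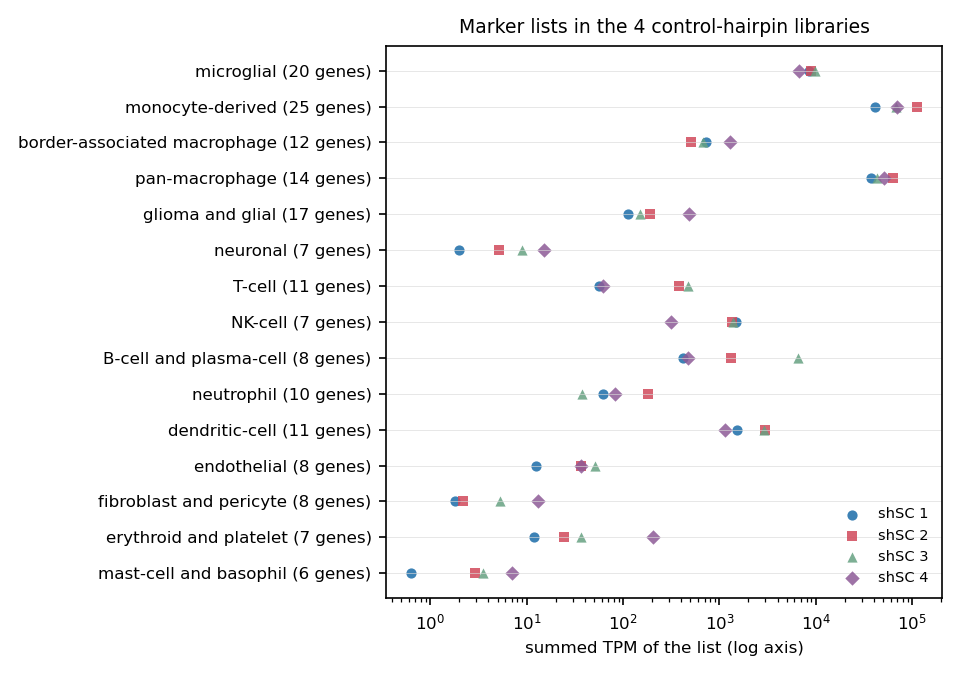
Summed TPM on a log axis for each list of origin and cell-type markers, with the number of genes in each list and 1 symbol per library. The monocyte-derived and shared macrophage sums are highest, B-cell and plasma-cell genes reach 6519 TPM in shSC 3, and NK-cell genes lie at 313 TPM in shSC 4.

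Genes of the cell cycle were expressed in 19 of 20 cases (95%), against 36.9% of all protein-coding genes. Of the 20, expressed or not, 16 were highest in shSC 4, as were 25.9% of expressed protein-coding genes. Pcna, a replication factor, was at 134, 124, 111 and 139.8 TPM, Stmn1 at 99.7, 84.0, 75.3 and 141 TPM and Ccnb2, a mitotic cyclin, at 50.3, 30.4, 33.5 and 54.9 TPM. Mki67 was at 0.488, 1.25, 0.886 and 4.83 TPM. The list summed to 649, 551, 497 and 859 TPM, and tumour cells also express it, so the glial markers of shSC 4 stand beside this value. The part of either cell in it was not tested.

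Over the 1848 expressed protein-coding genes with a mean of at least 50 TPM, the median SD of log2(TPM + 0.1) between libraries was 0.39. Ccl24 (4.11), Ly6d (2.33), Jchain (2.12), Arg1 (2.09), Ccl7 (1.97), H2-M2 (1.85), Cxcl1 (1.80), Gdf15 (1.70), Stmn3 (1.68) and Fabp7 (1.67) had the largest SD on that scale. They did not share a pattern. Arg1 and Ccl24 were highest in shSC 1. Ly6d, a marker of B-cell precursors and plasmacytoid cells, was at 13.9, 122, 305 and 11.5 TPM, and with Jchain was highest in shSC 3. H2-M2, a nonclassical class I gene known in dendritic cells, was at 66.3, 1487, 461 and 318 TPM. Ccl7, Cxcl1, Gdf15, Fabp7 and Stmn3, a stathmin of neural cells (14.5, 14.6, 21.8 and 166 TPM), were highest in shSC 4. The 10 most even genes, with an SD of 0.01 to 0.05, were Elp5, Sdcbp, Xbp1, Tmed10, Csnk2b, Cyb5a, Mrfap1, Eif4a3, P4hb and Trir. Elp5, a subunit of the Elongator complex, was at 67.1, 67.8, 67.5 and 66.8 TPM, and P4hb, a protein-folding enzyme, at 627, 637, 589 and 614 TPM.

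**Figure D5:**
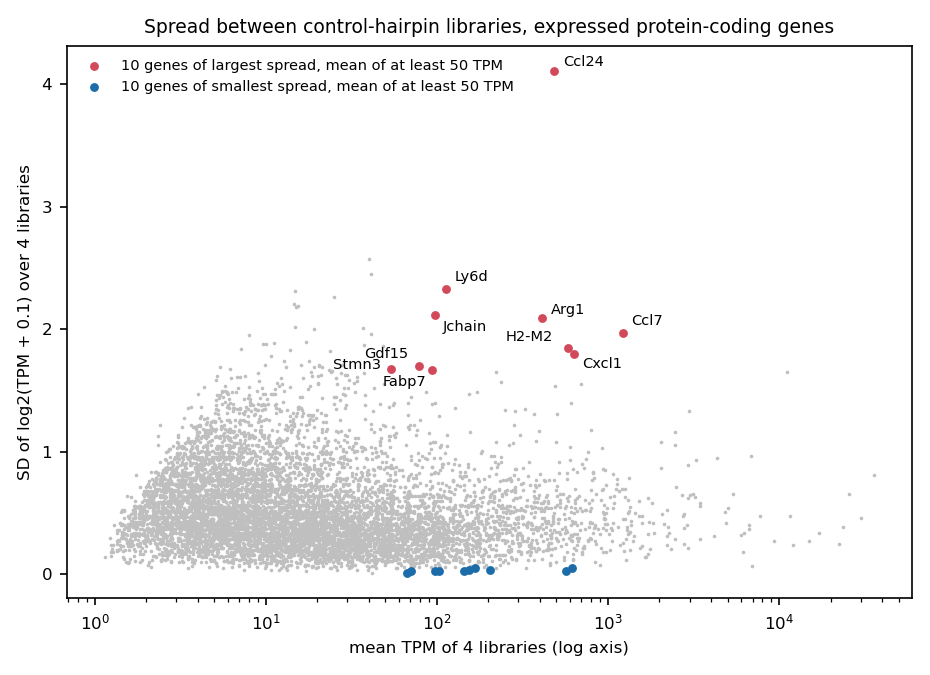
Mean TPM (log axis) against the SD of log2(TPM + 0.1) over the 4 libraries for expressed protein-coding genes, 1 point per gene. The 10 genes of largest SD (red) and of smallest SD (blue) among those with a mean of at least 50 TPM are marked, and Ccl24 stands alone at 4.11.

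Genes near the expression threshold had low read counts. The listed genes just inside it were Il7r, whose lowest value was 1.001 TPM on 76 reads in shSC 1, and Siglech, at 1.074 TPM on 33 reads in shSC 4. Just outside were Acta2, at 0.9670 TPM on 31 reads in shSC 2, and Tlr9, at 0.9357 TPM on 35 reads in shSC 1. Expressed genes had a median of 336.0 reads in their lowest library, and 243 of the 9611 had under 10 reads in some library.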

How the data were processed

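RNA libraries from sorted tumour macrophages were read from 4 deposited files, 1 per control-hairpin replicate. Libraries of the other hairpin were not used here. The authors deposited whole-number read counts per gene with exon coordinates and lengths, per the file headers. The submitters' processing notes name mm10 as the build and, as tools, Trim Galore, HISAT2 and featureCounts. The annotation is not given in the sources used here, nor are versions or settings. Gene IDs without version were matched to GENCODE mouse release names, and 55144 of 55385 matched. Counts were divided by gene length and scaled to TPM, and 0.1 was added before logarithms were taken. Depth was 19169129 to 32590781 reads, intervals from counts cover counting error only, and PCR copies are not independent molecules. A floor of 3 reads was used for 0 reads.

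The 553 listed genes, of which 551 matched, and the 164 named genes were chosen with earlier results of these data known. The rule named the most abundant genes, the 3 highest of each class, all microglial and monocyte-derived genes, the 6 highest transcription factors, and the 10 genes of largest and of smallest spread with a mean of at least 50 TPM. Other genes were named for their role after their values were seen, and some genes that the rule covers are not reported here by name. With 1 group no test was made, and the groups' labels gave no batch. A value was marked where its gap to the next library over the range passed 0.829. Alternatives changed the TPM minimum, length, gene set and scaling (edgeR 4.0.16 and DESeq2 1.42.0 for scaling only), or left out a library. The scripts (Python 3.11.15, pandas 2.3.3, R 4.3.3) were checked on simulated data.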

Additional observations from a re-analysis of the deposited data

Results flagged for a closer look

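In 23 of 223 values checked, 1 library lay far from the other 3, where chance marks about 1 in 20. Some of these genes were chosen by their spread or after their values were seen, so the count cannot be read against that rate. The marked library was shSC 4 in 13, shSC 1 in 5, shSC 3 in 4 and shSC 2 in 1. Values of 1 library are not independent of each other.

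shSC 4 was highest in C5ar1 (472 TPM, against 168 to 198 TPM), Pf4 (679 TPM, against 53.7 to 112 TPM), Mif (1701 TPM, against 1089.9 to 1191 TPM) and Gdf15 (223 TPM, against 13.1 to 43.4 TPM). It was also highest in Fabp7 (288 TPM), Olig1 (80.7 TPM) and Stmn3 (166 TPM), which glial and neural cells express, and in Hbb-bs (114 TPM), Hba-a1 (83.0 TPM) and Mcpt8 (1.43 TPM, with 0 reads in the other 3, which allows up to 0.222 TPM). The summed level of interleukins, interferons and TNF-family cytokines was highest there, at 18062 TPM against 7931 to 9583 TPM, and so was that of erythroid and platelet genes, at 202 TPM. The summed level of NK-cell genes was lowest there, at 313 TPM against 1341 to 1494 TPM, and without Gzma it was 112 TPM against 218 to 563 TPM.

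shSC 1 was highest in Ccl24 (1685 TPM), Lpcat2 (371 TPM, against 284 to 292 TPM) and Trir (177 TPM, against 165 TPM, a small difference). It was lowest in the summed chemokine and chemotactic receptors (2600.4 TPM) and the summed matrix proteins, matricellular proteins and galectins (5594 TPM). shSC 3 was highest in Lgals3 (3662 TPM), Igkc (5635 TPM) and Jchain (335 TPM), and in the summed B-cell and plasma-cell genes (6519 TPM). shSC 2 was lowest in Cyb5a (68.7 TPM, against 71.0 to 71.4 TPM), which differed little in size.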

How the results depend on the processing

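The number of genes expressed was 5664 with a minimum of 5 TPM and 28930 with at least 1 read in some library as the only condition, and from 7945 to 12570 under the other settings. Without scaling to length, the share of the 100 most abundant genes was 39.9%, the share of mitochondrially encoded genes 1.32%, and microglial minus monocyte-derived mean log2 TPM -1.18. With protein-coding genes only, the share of mitochondrially encoded genes was 1.30%. Without overlapped genes, microglial minus monocyte-derived mean log2 TPM was -1.73. In lists cut, after the data were seen, to genes that other macrophages and cell types express less, microglial genes expressed numbered 8 and monocyte-derived genes expressed 13, and the difference was -1.46. Leaving out each library in turn gave 9742 to 10771 as the number of genes expressed and -1.51 to -1.42 as the difference. The share of mitochondrially encoded genes could not be given without those genes. Of the 164 named genes, the mean of 82 moved by more than its SD without scaling to length, of 18 with effective length and of 6 without mitochondrial genes. With protein-coding genes only, where named genes of other types drop out, 18 moved and 138 did not. With TMM factors and with DESeq2 size factors, whose values per kilobase are on another scale than TPM, 99 and 100 moved. Low reads limit genes near 1 TPM. No paired analysis was possible because the values come from 1 hairpin group and from no test.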
